A study of Homo sapiens with 8 samples.

Results

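The genes described here encode the metzincin metalloproteases that cut extracellular matrix and cell-surface proteins, and the proteins that inhibit them. They were taken by name: every symbol on the array made of MMP, ADAM or ADAMTS and a number, with TIMP1, TIMP2, TIMP3, TIMP4 and RECK. This gave 68 genes of the 31426 with a symbol, measured by 111 of 47322 probes, and each gene was read from its brightest probe, taken by the mean of all 8 arrays. A total of 28 of the 68 had more than 1 probe.

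The arrays hold total RNA of 2 human neuroblastoma cell lines, of which SH-SY5Y is neuroblastic and SH-EP2 epithelial-like. Both lines had been transduced with lentivirus, and all 4 groups therefore carry a vector with an shRNA. The control groups carry a scrambled shRNA and the others an shRNA against TRPM7, a cation channel fused to a protein kinase, with 2 arrays in each of the 4 groups. Transduced cells were selected with puromycin. The study's methods list a second TRPM7 shRNA for SH-EP2, but the array labels name only one kind, so that effects of the shRNA on other targets cannot be told apart from those on TRPM7. The labels number the replicates, and the study's methods describe duplicate preparation and analysis of the samples. Neither says that the replicates came from separate cultures. The p-values therefore measure the spread between these arrays, which may be technical.

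Levels are given as log2 normalized signal, and a difference of 1 on this scale is a doubling. A gene was called detected on an array at a detection p under 0.05, which on these arrays corresponded to a lowest log2 level between 2.999 and 3.24. Detected probes made up 40.8% to 44.2% of all probes per array. The single TRPM7 probe was detected on none of the 8 arrays, with levels between 2.46 and 3.02. Its difference was -0.08 ± 0.45 (SE) in SH-EP2, so the knockdown itself cannot be read from these data. The paper describes stable TRPM7 knockdown in both lines, and its methods list quantitative RT-PCR of TRPM7. Of 9 noradrenergic markers of neuroblastic cells, 8 were lower in SH-EP2 than in SH-SY5Y control cells and TH was detected on no array. Of 10 mesenchymal markers, 8 were higher in SH-EP2, while VIM and TWIST1 were lower there.

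Matrix metalloproteases (MMPs) cut collagens and other matrix proteins, either as secreted enzymes or anchored in the plasma membrane. ADAMs are mostly transmembrane enzymes that release growth factors, cytokines and adhesion molecules from the cell surface, while ADAMTS enzymes are secreted, bind the matrix and include the aggrecanases and the procollagen N-proteinases. The enzymes are made as inactive precursors, and once active they are held back by the secreted TIMPs and by RECK, a membrane-anchored inhibitor. This balance is studied in tumour cells because matrix breakdown and the shedding of adhesion proteins accompany cell migration and invasion.

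The arrays detected about as many of these genes in each group. By the probe used for each gene, 32 of the 68 were detected on both arrays of at least 1 group, 15 on all 8 arrays and 25 on none. Both arrays of a group detected 21 genes in SH-SY5Y control cells, 23 in SH-SY5Y TRPM7 shRNA cells, 21 in SH-EP2 control cells and 23 in SH-EP2 TRPM7 shRNA cells. None of the collagenases (MMP1, MMP8, MMP13) or matrilysins (MMP7, MMP26) was detected on both arrays of a group by that probe. By contrast, 6 of 9 sheddase ADAMs and 4 of 5 inhibitors were. In bulk RNA, fewer cells that express a gene and less RNA of it per cell cannot be told apart, and this holds for every level below.

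More of these genes were called with TRPM7 shRNA in SH-EP2 than in SH-SY5Y, as was also true of all genes. The difference between the 2 counts was not tested. In SH-EP2 cells 8 of 68 passed an adjusted p of 0.05 in limma (11.8%, against 3.67% of all genes), with 2 higher and 6 lower, where 1.82% of all genes were called higher and 1.85% lower. In SH-SY5Y cells 3 of 68 passed (4.41%, against 2.57% of all genes), with 1 higher and 2 lower, where 0.999% of all genes were called higher and 1.57% lower. With 2 arrays a group, arrays of control and TRPM7 shRNA cells did not overlap in 59.4% of the genes detected in SH-EP2 and in 49.8% of those detected in SH-SY5Y, so that a lack of overlap alone says little of a gene. ADAMTS1, ADAMTS5, MMP11, ADAM19, TIMP1 and RECK fell and MMP9 and ADAM22 rose in SH-EP2, while ADAMTS9 and ADAM19 fell and ADAM23 rose in SH-SY5Y. The median difference over the 68 genes was -0.06 in SH-EP2 (0.01 over all genes) and -0.12 in SH-SY5Y (0.0034 over all genes). Leaving out 1 array leaves 1 in its group. When this was an SH-EP2 array, fewer members passed in that line, as did fewer of all probes. A call lost in this way may reflect that array or the smaller number of arrays, which cannot be told apart. The differences of the called members kept their sign, at 1.82 to 2.29 for MMP9 and 1.25 to 2.09 for ADAM22 in SH-EP2.

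**Figure D1:**
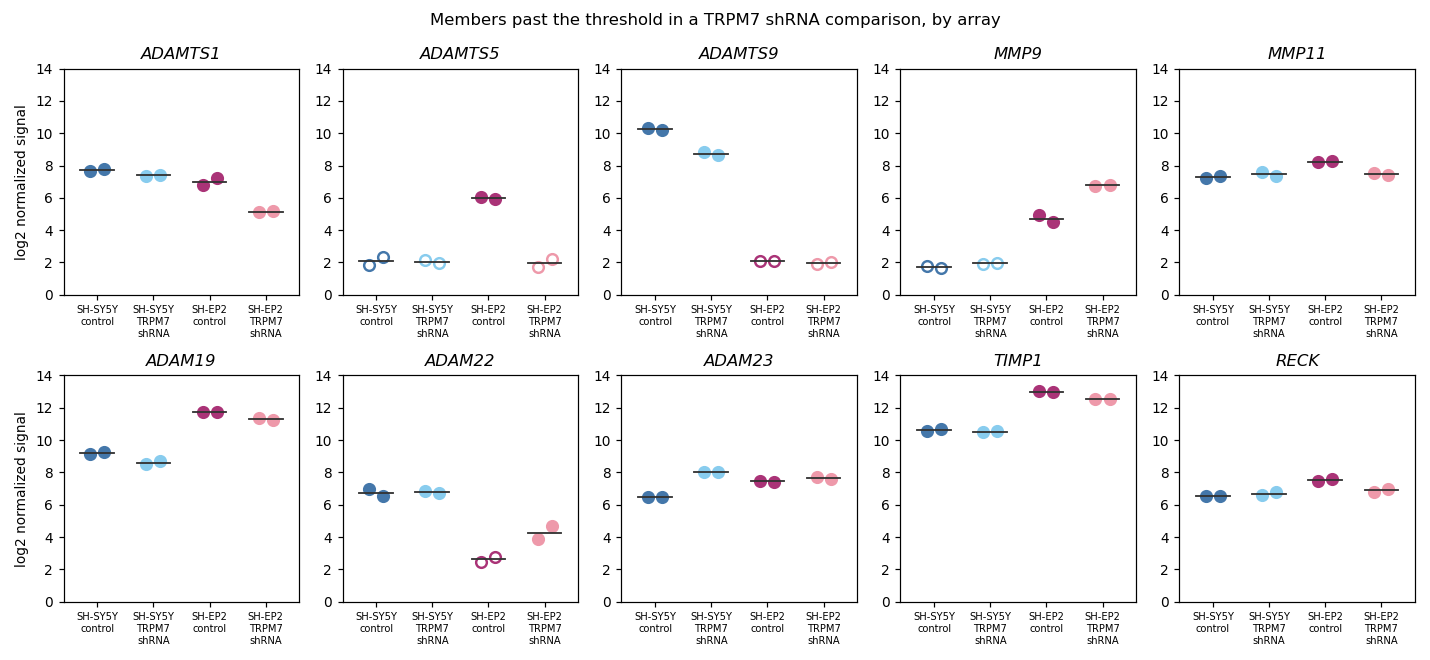
Log2 normalized signal (vertical axis) of the 10 members past the threshold in a TRPM7 shRNA comparison, with 1 point per array, filled where detected and open where not, and a line at the mean of the 2 arrays of each group (horizontal axis). ADAMTS5 is detected in SH-EP2 control cells alone, at 5.93 and 6.03, and ADAMTS9 in SH-SY5Y cells alone, while ADAM19 is lower with TRPM7 shRNA in both lines.

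Promoter sequences were at hand for 6 of these 10 genes and are shown because these are the members whose RNA moved. Each line gives the 100 bases before the gene start, 5′ to 3′ on the gene's own strand, from RefSeq on GRCh38.p14. Capitals mark the GC box GGGCGG or its reverse complement CCGCCC. The windows are ADAM19 chr5:157575776-157575875 (minus strand), ADAM22 chr7:87934151-87934250, ADAM23 chr2:206443432-206443531, MMP11 chr22:23772749-23772848, RECK chr9:36036813-36036912 and TIMP1 chrX:47582336-47582435 (all plus strand).
ADAM19: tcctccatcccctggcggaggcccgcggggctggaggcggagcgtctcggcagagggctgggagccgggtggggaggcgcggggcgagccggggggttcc
ADAM22: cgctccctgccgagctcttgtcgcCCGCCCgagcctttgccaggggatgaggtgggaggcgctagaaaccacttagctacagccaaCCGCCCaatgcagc
ADAM23: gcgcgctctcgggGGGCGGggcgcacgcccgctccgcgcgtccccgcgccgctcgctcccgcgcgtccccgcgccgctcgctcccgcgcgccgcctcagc
MMP11: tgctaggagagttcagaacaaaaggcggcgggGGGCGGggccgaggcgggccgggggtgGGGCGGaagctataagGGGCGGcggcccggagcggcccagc
RECK: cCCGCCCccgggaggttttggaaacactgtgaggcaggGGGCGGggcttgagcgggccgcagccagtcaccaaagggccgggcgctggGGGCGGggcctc
TIMP1: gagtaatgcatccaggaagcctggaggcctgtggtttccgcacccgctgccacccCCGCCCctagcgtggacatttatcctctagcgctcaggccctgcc

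The GC box is the letters bound by SP1-type factors, and TGAGTCA those bound by AP-1. TATAAA was the TATA box searched, and none of these 3 motifs holds another. All were searched on both strands of the 250 bases before the start. MMP11 and RECK each held 3 GC boxes and ADAM22, ADAM23 and TIMP1 each held 2, whereas ADAM19 held none. Across the 40 promoter entries found for 39 of the 68 genes, 26 held a GC box, against 42.6% of all 35116 promoters. A TATAAA was present in 7 of the 40, all of them entries of ADAMTS10 or of the MMPs MMP7, MMP8, MMP10, MMP20, MMP21 and MMP26, against 10.7% of all promoters. TGAGTCA stood in 1 of the 40, that of MMP7, against 4.2% of all promoters. None of the 6 promoters printed held TGAGTCA or TATAAA. A match describes the letters in the window and not the binding of a factor. ADAMTS1, ADAMTS5, ADAMTS9 and MMP9 had no entry.

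Among the gelatinases, which cut denatured collagen and basement membrane collagen, MMP9 rose in SH-EP2 cells. Its level was 4.94 and 4.48 on the control arrays and 6.73 and 6.80 on the TRPM7 shRNA arrays, so the groups did not overlap. This is a difference of 2.06 ± 0.40 (SE; 4.16-fold, limma adjusted p = 0.00476). MMP9 was detected on no SH-SY5Y array, where levels lay between 1.67 and 1.96, and the difference between the effects in the 2 lines did not pass (1.85 ± 0.57, limma adjusted p = 0.156). The call was lost without SH-EP2 control replicate 2, TRPM7 shRNA replicate 1 or TRPM7 shRNA replicate 2, and adjusted p ranged from 1.28e-07 to 0.105 over 18 alternative settings with the difference between 1.82 and 2.29 when 1 array was left out. Without background correction the difference was 0.67 and still passed.

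MMP2, the other gelatinase, was detected on all 8 arrays and passed in neither line. It read 5.47 and 5.70 in SH-EP2 control cells and 5.98 and 6.01 with TRPM7 shRNA. Its SH-SY5Y levels were 5.64 and 5.77 in control cells and 5.32 and 4.95 with TRPM7 shRNA. The arrays thus did not overlap in either line and the difference had opposite signs, at 0.41 (95% interval -0.07 to 0.89, limma adjusted p = 0.514) in SH-EP2 and -0.57 (-1.06 to -0.09, limma adjusted p = 0.316) in SH-SY5Y. The difference between the 2 effects was 0.98 ± 0.33 (limma adjusted p = 0.21).

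The stromelysins are a further group of MMPs, and MMP11, placed with them, is secreted in active form. MMP11 read 8.21 and 8.26 in SH-EP2 control cells and 7.55 and 7.44 with TRPM7 shRNA. It fell by 0.74 ± 0.14 on the log2 scale (limma adjusted p = 0.00352). SH-SY5Y control cells read 7.24 and 7.33 and TRPM7 shRNA cells 7.59 and 7.35, which did not pass (0.18, limma adjusted p = 0.71). The effects in the 2 lines differed by -0.92 ± 0.20 (limma adjusted p = 0.0182). The fall in SH-EP2 was lost without control replicate 2 or TRPM7 shRNA replicate 2 (adjusted p 0.000116 to 0.195 over 18 settings, difference -0.80 to -0.68 with 1 array left out), and the difference between lines without any 1 SH-EP2 array or without SH-SY5Y TRPM7 shRNA replicate 1 (0.00128 to 0.328 over 17 settings, -1.05 to -0.81). MMP3, stromelysin-1, was detected in the SH-EP2 groups only, at 4.995 and 4.95 in control cells and 5.54 and 5.18 with TRPM7 shRNA, and did not pass (0.39, limma adjusted p = 0.792). MMP10, stromelysin-2, was detected on 1 array of each SH-EP2 group.

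MMP14, the membrane-type enzyme that activates the MMP2 precursor, did not pass. It was detected on 1 SH-EP2 control array, at 3.84, with the other at 2.91. Both TRPM7 shRNA arrays detected it, at 5.06 and 4.96. The difference in SH-EP2 was 1.63 (95% interval 0.58 to 2.69, limma adjusted p = 0.102). It was undetected on every SH-SY5Y array. Its call depended on the processing, since MMP14 passed with normexp background correction, without background correction and with SH-EP2 fitted alone. None of the 6 membrane-type enzymes passed in either line. MMP24 was detected on all 8 arrays (-1.09 in SH-EP2, -0.57 in SH-SY5Y), MMP15 on both arrays of the SH-SY5Y TRPM7 shRNA group alone, and MMP16, MMP17 and MMP25 on both arrays of no group.

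Of the remaining MMPs, MMP28 (epilysin) was detected on all 8 arrays, with group means between 4.51 and 5.56, and MMP21 on both arrays of SH-SY5Y TRPM7 shRNA cells. Neither passed. MMP12, MMP19, MMP20 and MMP27 were detected on no array. MMP7 was read from a probe that did not pass (0.26 in SH-EP2, limma adjusted p = 0.898), whereas its second, dimmer probe read 1.81 and 2.06 in SH-EP2 control cells and 3.33 and 3.26 with TRPM7 shRNA. That probe was detected on the TRPM7 shRNA arrays only and passed (limma adjusted p = 0.0343), at least 1.05-fold higher. It was singled out after its values were seen.

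The ADAMTS enzymes held the largest fall. ADAMTS5, the main aggrecanase of cartilage, read 6.03 and 5.93 in SH-EP2 control cells and 1.69 and 2.21 with TRPM7 shRNA. It was thus detected on both control arrays and on neither TRPM7 shRNA array. It was also undetected on the 4 SH-SY5Y arrays (1.81 to 2.31). Because a level below detection is only a bound, ADAMTS5 was at least 7.01-fold lower, the bound being taken against the lowest detected level of each array. The fitted difference was -4.03 ± 0.47 (limma adjusted p = 2.81e-05), and it kept passing in all 18 alternative settings. Its size depended on the background correction, and without any correction it was -0.74.

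ADAMTS1, which cuts versican and aggrecan and lies next to ADAMTS5 on chromosome 21, fell in the same cells. Its level was 6.79 and 7.21 in SH-EP2 control cells and 5.12 and 5.18 with TRPM7 shRNA. The difference was -1.85 ± 0.17 (3.6-fold, limma adjusted p = 1.81e-06), and it passed in all 18 settings, at -0.70 without background correction. In SH-SY5Y cells ADAMTS1 read 7.67 and 7.76 in control cells and 7.34 and 7.43 with TRPM7 shRNA. These arrays did not overlap either, but the difference of -0.33 (95% interval -0.70 to 0.03) did not pass (limma adjusted p = 0.51). The effects in the 2 lines differed by -1.52 ± 0.25 for ADAMTS1 (limma adjusted p = 0.00155) and by -4.03 ± 0.67 for ADAMTS5 (limma adjusted p = 0.0019).

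ADAMTS9, an enzyme of versican turnover, was the member that fell most in SH-SY5Y cells among those that passed. It read 10.31 and 10.19 in control cells and 8.82 and 8.66 with TRPM7 shRNA, a difference of -1.51 ± 0.21 (2.85-fold, limma adjusted p = 0.000217). It passed in all 18 settings. In SH-EP2 it was undetected on all 4 arrays (1.93 to 2.12), so that a fall there could not be measured. The difference between the 2 effects, 1.39 ± 0.30 (limma adjusted p = 0.0186), therefore sets a detected gene against one at background. It was lost without any 1 SH-SY5Y array and ranged in adjusted p from 1.17e-08 to 0.15 over 17 settings, at 1.32 to 1.48 with 1 array left out.

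Of the 7 ADAMTS enzymes that cut hyalectans, the hyaluronan-binding proteoglycans, 2 fell in SH-EP2 (28.6%), 1 fell in SH-SY5Y (14.3%) and none passed as higher. Among all genes, 1.85% were called lower in SH-EP2 and 1.57% in SH-SY5Y. The other hyalectan-cleaving members detected on both arrays of a group were ADAMTS4 and ADAMTS15. ADAMTS15 was undetected in SH-EP2 control cells (2.51 and 2.42) and detected with TRPM7 shRNA (3.26 and 3.51). Its difference there was positive and did not pass (0.92, limma adjusted p = 0.484). ADAMTS4 (aggrecanase-1) read 4.30 and 5.21 in SH-EP2 control cells and 4.96 and 4.47 with TRPM7 shRNA, which overlapped. In SH-SY5Y it was detected on 1 control array and no TRPM7 shRNA array, and did not pass (-1.49, limma adjusted p = 0.183), but it passed when SH-SY5Y control replicate 1 was left out. ADAMTS8 and ADAMTS20 were detected on both arrays of no group. Of the procollagen N-proteinases, ADAMTS3 was detected on all 8 arrays and passed in neither line (0.33 in SH-EP2, 0.25 in SH-SY5Y). Among the other ADAMTS genes, ADAMTS19 read 9.49 and 9.40 in SH-SY5Y control cells and 8.76 and 8.78 with TRPM7 shRNA. The arrays did not overlap, but the difference of -0.67 (95% interval -1.23 to -0.11) did not pass (limma adjusted p = 0.303). It passed with neqc or normexp background correction, with no correction and with SH-SY5Y fitted alone. ADAMTS7 was detected on both SH-EP2 control arrays (3.73 and 3.83) and on neither TRPM7 shRNA array (2.52 and 3.14), and did not pass (limma adjusted p = 0.213).

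**Figure D2:**
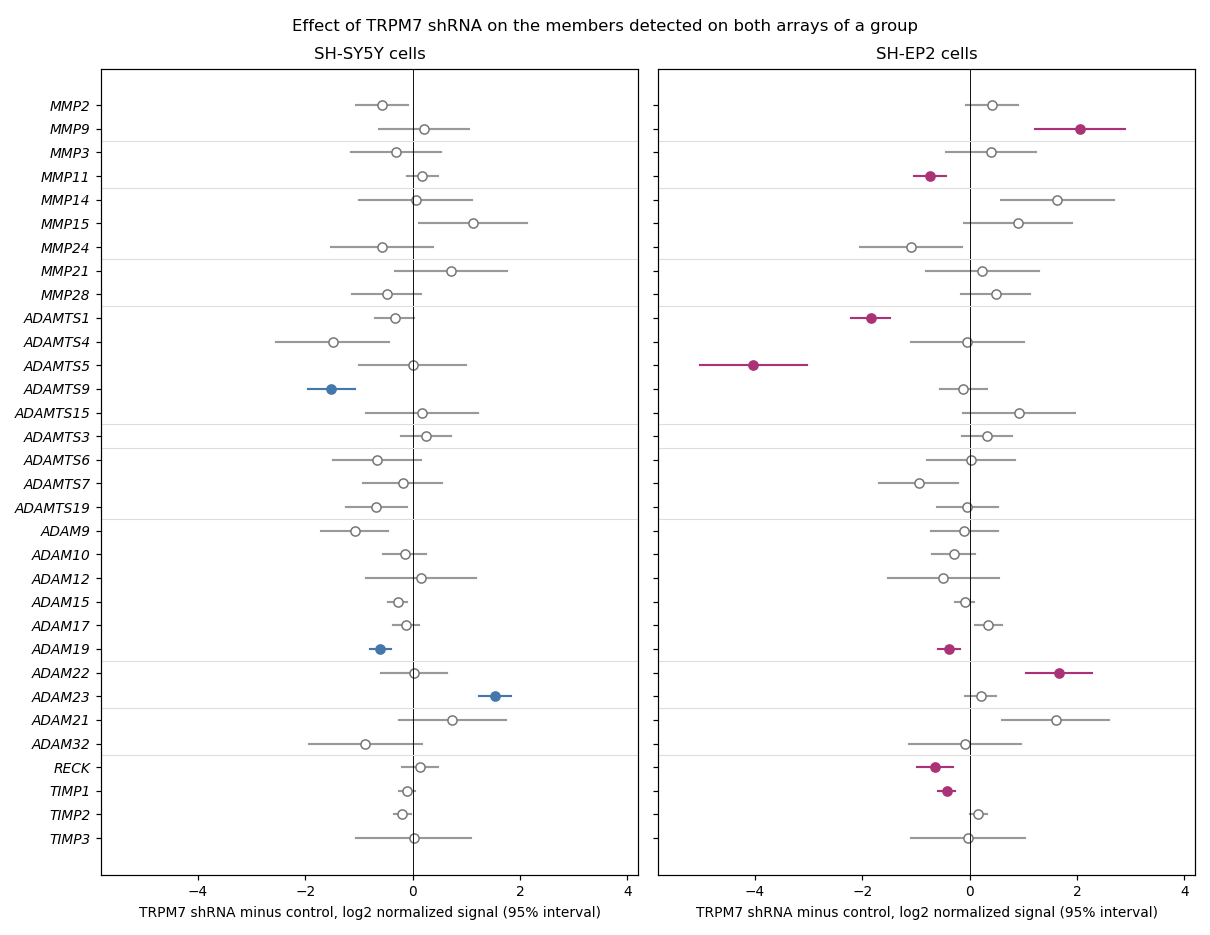
Difference between TRPM7 shRNA and control cells in log2 normalized signal (horizontal axis), with its 95% interval, for the 32 members detected on both arrays of at least 1 group, grouped by role, in SH-SY5Y (left) and SH-EP2 (right). Filled points passed an adjusted p of 0.05 in limma. In SH-EP2 they run from ADAMTS5 at -4.03 to MMP9 at 2.06, and in SH-SY5Y from ADAMTS9 at -1.51 to ADAM23 at 1.53.

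ADAM19 (meltrin beta), which sheds neuregulin and other ligands, was the only one of the 68 genes to pass in both lines. It read 11.72 and 11.73 in SH-EP2 control cells and 11.39 and 11.27 with TRPM7 shRNA, a difference of -0.39 ± 0.10 (limma adjusted p = 0.0291). Its SH-SY5Y levels were 9.12 and 9.29 in control cells and 8.49 and 8.71 with TRPM7 shRNA, a difference of -0.60 ± 0.10 (limma adjusted p = 0.000908). The arrays overlapped in neither line, and the effects differed by 0.21 (95% interval -0.07 to 0.50, limma adjusted p = 0.649). In SH-EP2 the call was lost when any 1 SH-EP2 array was left out (difference -0.45 to -0.33, adjusted p 0.000233 to 0.925 over 18 settings). The other 2 probes of ADAM19 were detected on no array, and averaging all 3 ended the call in both lines.

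The other sheddases passed in neither line. ADAM10, the main alpha-secretase and a sheddase of Notch and cadherins, read 7.33 and 6.96 in SH-EP2 control cells and 6.996 and 6.70 with TRPM7 shRNA. In SH-SY5Y it read 6.51 and 6.41 in control cells and 6.49 and 6.13 with TRPM7 shRNA. The groups overlapped in both lines, with differences of -0.30 (95% interval -0.70 to 0.10) and -0.15 (-0.55 to 0.25). ADAM17, which releases TNF and ligands of the EGF receptor, read 8.35 and 8.33 in SH-EP2 control cells and 8.72 and 8.65 with TRPM7 shRNA. Levels in SH-SY5Y were 7.82 and 7.87 in control cells and 7.69 and 7.75 with TRPM7 shRNA. Here the arrays overlapped in neither line, but the differences of 0.34 (95% interval 0.09 to 0.59, limma adjusted p = 0.166) and -0.13 (-0.38 to 0.12, limma adjusted p = 0.79) did not pass. ADAM17 passed in SH-EP2 when that line was fitted alone. The dimmer ADAM17 probe differed by -0.10 in SH-EP2, opposite in sign.

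ADAM9 and ADAM15, the remaining sheddases detected on all 8 arrays, did not pass. ADAM9 read 3.91 and 4.68 in SH-SY5Y control cells and 3.35 and 3.07 with TRPM7 shRNA, a difference of -1.08 ± 0.30 (limma adjusted p = 0.0726). It passed without SH-SY5Y control replicate 1. ADAM15 differed by -0.10 in SH-EP2 and -0.28 in SH-SY5Y. ADAM12 was detected on all 4 SH-SY5Y arrays, and ADAM8, ADAM28 and ADAM33 on no array.

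The neural ADAMs lack a working catalytic site and act as adhesion receptors, with ADAM22 and ADAM23 binding the secreted LGI proteins at synapses. ADAM23 rose in SH-SY5Y cells, from 6.47 and 6.502 in control cells to 8.01 and 8.03 with TRPM7 shRNA. The difference was 1.53 ± 0.14 (2.89-fold, limma adjusted p = 1.06e-06) and passed in all 18 settings. In SH-EP2 it read 7.46 and 7.43 in control cells and 7.69 and 7.61 with TRPM7 shRNA. Those arrays did not overlap, but the difference of 0.20 (95% interval -0.09 to 0.49) did not pass (limma adjusted p = 0.628). The effects in the 2 lines differed by -1.33 ± 0.20 (limma adjusted p = 0.00061).

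ADAM22 rose in SH-EP2 cells instead. It was undetected on both control arrays, at 2.47 and 2.75, and detected on both TRPM7 shRNA arrays, at 3.86 and 4.68. It was thus at least 2.06-fold higher, with a fitted difference of 1.66 ± 0.30 (limma adjusted p = 0.00214). In SH-SY5Y it read 6.95 and 6.56 in control cells and 6.82 and 6.74 with TRPM7 shRNA, which overlapped, and the effects in the 2 lines did not differ past the threshold (1.64, limma adjusted p = 0.0611). The call was lost in 6 of 18 settings (adjusted p 0.000316 to 0.565). These were normexp background correction, no background correction (where the difference was 0.22), no intensity trend, the mean over its probes, SH-EP2 fitted alone and SH-EP2 TRPM7 shRNA replicate 2 left out, and the difference lay between 1.25 and 2.09 with 1 array left out. The other 2 ADAM22 probes were detected on no array. ADAM11 was detected on no array.

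Of the other ADAMs, many of which are known from the testis, ADAM21 and ADAM32 were detected on both arrays of a group. ADAM21 read 3.82 and 3.18 in SH-EP2 control cells and 5.01 and 5.19 with TRPM7 shRNA, a difference of 1.604 ± 0.48 that did not pass (limma adjusted p = 0.0849). It passed with normexp background correction, with no correction, among probes detected on at least 2 arrays and with SH-EP2 fitted alone. Its neighbour on chromosome 14, ADAM20, was detected on no array. ADAM32 was detected on both SH-SY5Y control arrays and no other. ADAM5 and ADAM6 are transcribed pseudogenes.

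Of the inhibitors, TIMP1 and RECK fell in SH-EP2 and none passed in SH-SY5Y. TIMP1 read 13.02 and 12.95 in SH-EP2 control cells and 12.56 and 12.56 with TRPM7 shRNA. The difference was -0.43 ± 0.07 (1.34-fold, limma adjusted p = 0.00148), and all but 1 of 18 settings kept the call. In SH-SY5Y TIMP1 read 10.56 and 10.69 in control cells and 10.48 and 10.55 with TRPM7 shRNA, and did not pass (-0.11, limma adjusted p = 0.655). The effects differed by -0.32 ± 0.10, which did not pass (limma adjusted p = 0.19).

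RECK, which inhibits several MMPs at the cell surface, read 7.48 and 7.58 in SH-EP2 control cells and 6.78 and 6.99 with TRPM7 shRNA. The difference was -0.64 ± 0.16 (limma adjusted p = 0.034). Its second probe gave the same size of difference, -0.64, but did not pass (limma adjusted p = 0.157). In SH-SY5Y RECK read 6.55 and 6.53 in control cells and 6.58 and 6.77 with TRPM7 shRNA, and did not pass (0.14, limma adjusted p = 0.846). The call in SH-EP2 was lost when any 1 SH-EP2 array was left out and when replicate numbers were blocked, with adjusted p between 0.0031 and 0.309 over 18 settings and a difference between -0.74 and -0.54 with 1 array left out.

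TIMP2, TIMP3 and TIMP4 passed in neither line. TIMP2, which inhibits MMP2 and also takes part in its activation by MMP14, read 12.31 and 12.34 in SH-EP2 control cells and 12.54 and 12.45 with TRPM7 shRNA. SH-SY5Y cells gave 12.01 and 11.91 in control cells and 11.86 and 11.68 with TRPM7 shRNA. The arrays did not overlap in either line and the differences, 0.16 (95% interval 0.01 to 0.32, limma adjusted p = 0.351) and -0.19 (-0.35 to -0.04, limma adjusted p = 0.282), had opposite signs, though that in SH-SY5Y was 0.14 as the mean over the TIMP2 probes. TIMP3, which binds the matrix and inhibits ADAM17 and aggrecanases, was detected in SH-SY5Y cells only, at 3.91 on 1 control array (2.92 and undetected on the other) and at 3.78 and 3.08 with TRPM7 shRNA. On the SH-EP2 arrays it lay between 1.42 and 2.20. TIMP4 was detected on no array, with levels between 1.58 and 2.54.

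The effect of TRPM7 shRNA differed between the lines for 5 of the 68 genes (7.35%, against 1.78% of all genes, in limma). The difference on the log2 scale was lower in SH-EP2 for ADAMTS1, ADAMTS5, ADAM23 and MMP11 (as for 0.786% of all genes). It was lower in SH-SY5Y for ADAMTS9 (as for 0.993% of all genes). That of ADAM23 was positive in both lines, at 0.20 in SH-EP2, which did not pass, and 1.53 in SH-SY5Y. ADAMTS5 was undetected in SH-SY5Y and ADAMTS9 in SH-EP2, so both set a detected gene against one at background. For MMP9, ADAM19, ADAM22, TIMP1 and RECK the difference between the lines did not pass.

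Markers of cell state moved in the same comparisons. In SH-EP2 40% of the mesenchymal and 22.2% of the noradrenergic markers passed, against 3.67% of all genes. The shares in SH-SY5Y were 20% and 22.2%, against 2.57% of all genes. In SH-EP2, 3 of 10 mesenchymal markers fell with TRPM7 shRNA (SNAI2 by 1.39, COL1A1 by 0.56 and TWIST1 by 0.37 on the log2 scale) and CD44 rose by 0.77. All 10 were detected in SH-EP2, and their summed linear signal was 26888 and 27581 on the control arrays and 27539 and 26842 on the TRPM7 shRNA arrays. The summed signal of the 9 noradrenergic markers in SH-EP2 stayed between 327 and 371, with PHOX2A, DBH, DDC, CHGA and TH undetected. GATA2 fell there by 0.78, and CHGA, undetected in both groups, passed at -0.63. Leaving out single SH-EP2 arrays ended the calls of COL1A1, TWIST1 and GATA2 (either control array or TRPM7 shRNA replicate 2) and of CD44 (any of the 4), and leaving out any of the 8 arrays ended that of CHGA. SNAI2 kept its call. In SH-SY5Y, SNAI2 and VIM fell, as did DBH and ISL1, of which VIM was lost without control replicate 1 or TRPM7 shRNA replicate 1 and ISL1 without either control array or TRPM7 shRNA replicate 2. There the summed mesenchymal signal was 17523 and 16133 in control cells and 14512 and 14556 with TRPM7 shRNA, with FN1, FOSL1 and PRRX1 undetected in both groups. The noradrenergic sum was 19684 and 21541 in control cells and 15676 and 14309 with TRPM7 shRNA, with TH undetected. These linear sums weight the brightest genes most. In SH-SY5Y, VIM went from 13.75 and 13.60 to 13.35 and 13.40, and DBH from 12.53 and 12.71 to 11.43 and 11.42. Counted by gene there, 5 of the 10 mesenchymal markers were higher and 5 lower with TRPM7 shRNA (median -0.0049). Of the 9 noradrenergic markers, 1 was higher and 8 were lower (median -0.24). The part of these shifts in the differences of the metalloprotease genes was not tested.

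Genes that act on or with these enzymes were followed in lists by function. Beside the counts below, 1.82% of all genes were called higher and 1.85% lower in SH-EP2. In SH-SY5Y 0.999% of all genes were called higher and 1.57% lower. The lists are small and were chosen with earlier results known, so their counts are descriptive. Of the 4 hyalectan substrates of aggrecanases, VCAN (versican) changed in both lines and in opposite directions. VCAN read 9.18 and 9.31 in SH-EP2 control cells and 8.49 and 8.23 with TRPM7 shRNA, a difference of -0.88 ± 0.11 (limma adjusted p = 7.23e-05). In SH-SY5Y it read 9.58 and 9.60 in control cells and 10.30 and 10.07 with TRPM7 shRNA, and rose (0.59 ± 0.11, limma adjusted p = 0.00479). The 2 effects differed by -1.47 ± 0.16 (limma adjusted p = 1.73e-05). VCAN thus fell where ADAMTS1 and ADAMTS5 fell, and rose where ADAMTS9 fell. BCAN (brevican), detected in SH-SY5Y only, did not pass, nor did ACAN or NCAN. The median difference of the 4 was 0.13 in SH-EP2 and 0.19 in SH-SY5Y.

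Plasmin activates several MMP precursors, and of the 7 genes of plasminogen activation followed here 1 rose and none fell in SH-EP2, while 1 rose and 1 fell in SH-SY5Y. PLAT, tissue plasminogen activator, read 8.04 and 8.17 in SH-EP2 control cells and 8.82 and 8.71 with TRPM7 shRNA, and rose (0.66 ± 0.15, limma adjusted p = 0.016). In SH-SY5Y it read 6.63 and 6.66 in control cells and 5.83 and 6.10 with TRPM7 shRNA, and fell (-0.68 ± 0.15, limma adjusted p = 0.0161). The difference between the effects of PLAT was also past the threshold (limma adjusted p = 0.00113). SERPINE2, protease nexin-1, rose in SH-SY5Y by 0.48 ± 0.08 (limma adjusted p = 0.00205). PLAU (urokinase) passed in neither line, at 0.45 in SH-EP2 and -0.36 in SH-SY5Y. The list's median difference was 0.45 in SH-EP2 and -0.15 in SH-SY5Y.

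Of 10 further binding partners of MMPs, 2 rose and 1 fell in SH-EP2 and none passed in SH-SY5Y (median 0.23 and 0.12). A2M (alpha-2-macroglobulin), which traps active proteases of all classes, read 5.05 and 4.47 in SH-EP2 control cells and was undetected with TRPM7 shRNA (2.26 and 1.52), at least 2.999-fold lower (limma adjusted p = 0.000804). SPOCK2 (testican-2) rose in SH-EP2 from 3.27 and 4.53 to 5.07 and 5.66 (1.46 ± 0.33, limma adjusted p = 0.0158). In SH-SY5Y it read 6.49 and 6.82 in control cells and 5.44 and 5.51 with TRPM7 shRNA, which did not pass (limma adjusted p = 0.0777), and the effects of SPOCK2 differed by 2.64 ± 0.47 (limma adjusted p = 0.00331). CD44, which docks MMP9 and MMP14 at the cell surface, rose in SH-EP2 from 11.58 and 11.63 to 12.27 and 12.48.

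**Figure D3:**
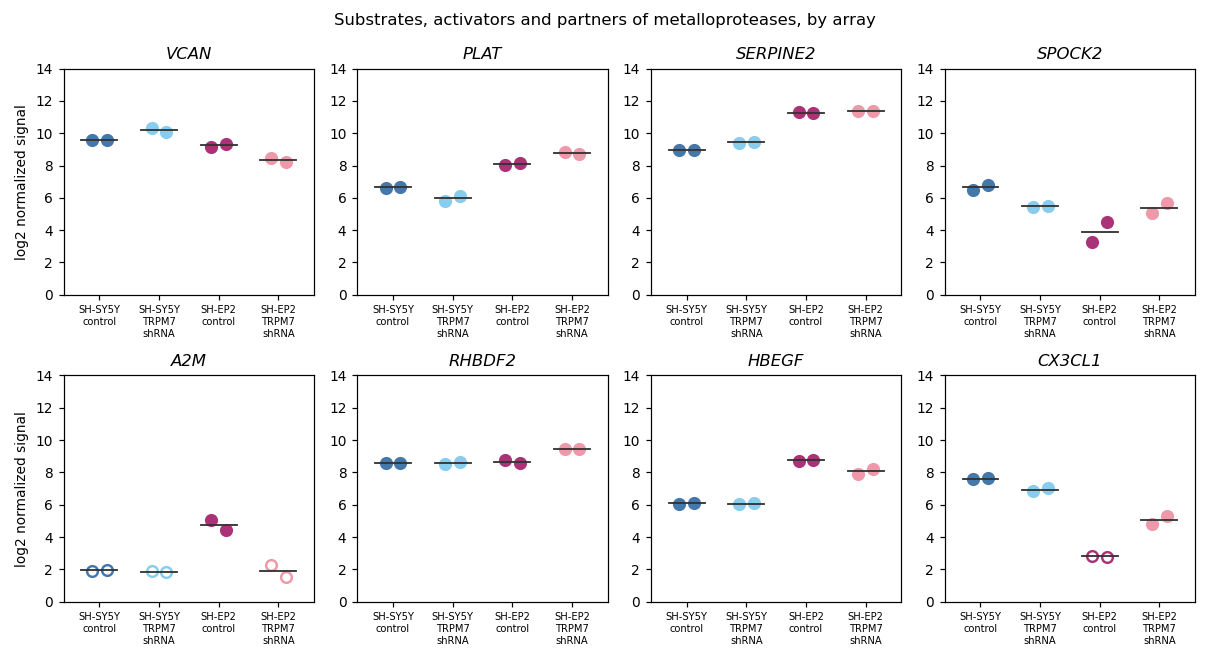
Log2 normalized signal (vertical axis) of 8 substrates, activators and partners of metalloproteases, with 1 point per array, filled where detected and open where not, and a line at the mean of each group (horizontal axis). VCAN is lower and PLAT higher with TRPM7 shRNA in SH-EP2, and the reverse in SH-SY5Y, and A2M is detected in SH-EP2 control cells alone.

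Partners and cargo of the sheddases form small lists. In SH-EP2 22.2% of the partners and 14.3% of the cargo passed, against 3.67% of all genes. The shares in SH-SY5Y were 0% and 7.14%, against 2.57% of all genes. Of 9 genes that carry ADAM10 or ADAM17 to the cell surface, RHBDF2 (iRhom2) rose in SH-EP2 from 8.74 and 8.57 to 9.44 and 9.43 (limma adjusted p = 0.000215) and TSPAN5 fell by 0.62 (limma adjusted p = 0.0265). None of the 9 passed in SH-SY5Y, and the median difference was -0.02 in SH-EP2 and 0.03 in SH-SY5Y. Of 14 ligands that ADAMs shed, 1 rose and 1 fell in SH-EP2 and 1 fell in SH-SY5Y (median 0.06 and -0.24). CX3CL1 (fractalkine), undetected in SH-EP2 control cells at 2.84 and 2.78, read 4.81 and 5.28 with TRPM7 shRNA, at least 3.53-fold higher (limma adjusted p = 5.97e-06). HBEGF fell in SH-EP2 by 0.69 ± 0.15 (limma adjusted p = 0.0131). CXCL16 fell in SH-SY5Y, where 1 control array and no TRPM7 shRNA array detected it (fitted difference -1.52 ± 0.29, limma adjusted p = 0.00498). Its call was lost in 7 of 18 settings, among them normexp or no background correction, no intensity trend and the mean over its probes. The difference lay between -2.11 and -0.21 over these settings.

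The remaining lists held 1 gene or none past the threshold in each line. None of 8 proprotein convertases, which remove the propeptides of many of these enzymes, passed in either line (median -0.21 in SH-EP2 and -0.02 in SH-SY5Y). Of 7 ADAMTS-like proteins, which lack the protease domain, ADAMTSL2 fell in SH-SY5Y from 7.56 on both arrays to 6.14 and 6.19 (limma adjusted p = 0.0255), and the median of the list was -0.34 in SH-EP2 against 0.06 in SH-SY5Y. Of 5 procollagen C-proteinases and enhancers, BMP1 fell in SH-EP2 by 0.49 ± 0.12 (limma adjusted p = 0.0338, list median -0.11 in SH-EP2 and -0.31 in SH-SY5Y). Of 9 other zinc endopeptidases of the cell surface, MME (neprilysin) rose in SH-EP2 from 9.79 and 9.91 to 10.86 and 10.74 (limma adjusted p = 0.000977, list median 0.04 in SH-EP2 and -0.29 in SH-SY5Y).

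Several calls of these list genes were lost when 1 array was left out, which leaves 1 array in its group. In SH-EP2, PLAT, TSPAN5 and BMP1 were lost without any 1 array of that line, HBEGF without either control array or TRPM7 shRNA replicate 1, SPOCK2 without control replicate 1 or TRPM7 shRNA replicate 2, and MME without TRPM7 shRNA replicate 1. In SH-SY5Y, ADAMTSL2 was lost without any 1 array, PLAT without control replicate 2 or TRPM7 shRNA replicate 1, CXCL16 without control replicate 1 or TRPM7 shRNA replicate 1, and VCAN without TRPM7 shRNA replicate 1. SPOCK2 in SH-EP2 ranged from 0.84 to 2.10 with 1 array left out and CXCL16 in SH-SY5Y from -2.11 to -0.95. A2M, CX3CL1, RHBDF2 and VCAN in SH-EP2 and SERPINE2 in SH-SY5Y passed whichever array was left out. The bounds given for A2M and CX3CL1 hold for the main processing only. Both passed in all 18 settings, but the smallest log2 difference was -0.43 for A2M and 0.34 for CX3CL1. BMP1 differed by 0.02 in SH-EP2 as the mean over its probes, without passing.

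The control cells of the 2 lines differed in a share of these genes only somewhat above that of all genes. In SH-EP2 against SH-SY5Y control cells 25 of 68 passed (36.8%, against 30.1% of all genes, in limma), with 17 higher and 8 lower in SH-EP2, where 14.2% of all genes were called higher and 15.9% lower. Arrays of the 2 control groups did not overlap in 83% of the genes detected in either. The median difference was 0.19, against -0.02 over all genes. This comparison uses the same control arrays as those with TRPM7 shRNA, so the 2 are not independent.

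The genes higher in SH-SY5Y were mainly ADAMTS enzymes and ADAM22. ADAMTS9 was detected at 10.31 and 10.19 in SH-SY5Y and not in SH-EP2 (2.12 and 2.10), at least 129.9-fold lower there (limma adjusted p = 9.43e-17). ADAMTS19 was detected at 9.49 and 9.40 in SH-SY5Y and not in SH-EP2 (1.47 and 1.54), at least 74.3-fold lower (limma adjusted p = 4.32e-15). ADAM22 was at least 11.5-fold lower in SH-EP2 (limma adjusted p = 6.72e-10). ADAMTS3 read 4.54 and 5.27 in SH-EP2 and 7.53 and 7.28 in SH-SY5Y (-2.50 ± 0.22, limma adjusted p = 1.67e-08). ADAMTS7, whose product cuts cartilage oligomeric matrix protein, read 3.73 and 3.83 in SH-EP2 and 5.26 and 5.69 in SH-SY5Y (-1.69 ± 0.35, limma adjusted p = 0.000803). Its second probe was detected on no array, and averaging both ended the ADAMTS7 call.

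Higher in SH-EP2 were ADAMTS5 (at least 7.08-fold, limma adjusted p = 1.25e-06), MMP9 (at least 2.93-fold, limma adjusted p = 5.4e-06) and MMP3 (at least 3.52-fold, limma adjusted p = 7.47e-05), none of them detected in SH-SY5Y control cells. ADAM19 was higher by 2.52 ± 0.10 (5.72-fold, limma adjusted p = 3.25e-14) and TIMP1 by 2.36 ± 0.07 (5.14-fold, limma adjusted p = 1.18e-15). All 3 stromelysins and 5 of 9 sheddase ADAMs were higher in SH-EP2, and no member of either group was called lower. Among control arrays, MMP10 was detected on 1 of SH-EP2 alone (3.97, with 3.07 on the other), and passed at limma adjusted p = 0.0354. Its call was lost without that array, either SH-SY5Y control array, SH-SY5Y TRPM7 shRNA replicate 1 or the intensity trend. ADAM10, ADAM15 and ADAM17 were also lost without the trend. Of the inhibitors TIMP1, TIMP2 and RECK were higher and TIMP3 lower. TIMP3 was detected on SH-SY5Y control replicate 1 alone among the control arrays. Its call was lost without that array, without SH-EP2 control replicate 1 or without the intensity trend. That of TIMP2 was lost without the trend and as the mean over its probes. The sizes of these differences depended on the background correction, the bounds included, while all 10 calls named here held with none. Without any correction the log2 difference was -3.62 for ADAMTS9, -3.02 for ADAMTS19, -0.96 for ADAM22, -0.98 for ADAMTS3, -0.32 for ADAMTS7, 0.72 for ADAMTS5, 0.44 for MMP9 and 0.35 for MMP3, but still 2.31 for ADAM19 and 2.28 for TIMP1. Averaging its probes lowered ADAM19 to 0.82. MMP2 did not differ past the threshold (-0.12, 95% interval -0.61 to 0.36).

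**Figure D4:**
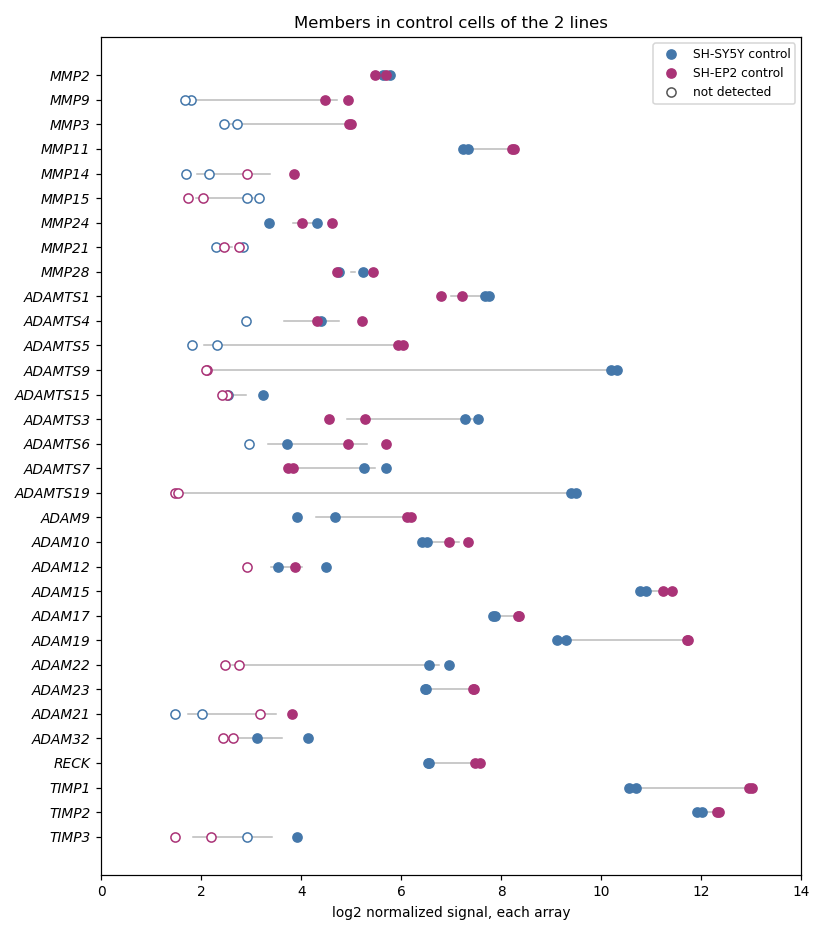
Log2 normalized signal (horizontal axis) in control cells for the 32 members detected on both arrays of at least 1 group, with 1 point per array in SH-SY5Y (blue) and SH-EP2 (purple), open where not detected, and a grey line joining the 2 means. ADAMTS9, ADAMTS19 and ADAM22 are detected in SH-SY5Y alone, and ADAMTS5, MMP9 and MMP3 in SH-EP2 alone.

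Some of the 68 genes stand next to each other in gene order on the genome. The longest run holds 9 MMP genes on chromosome 11, from MMP7 to MMP13, of which MMP3 was the only 1 detected on both arrays of a group by the probe used. On chromosome 8, ADAM9, ADAM32, ADAM18 and ADAM2 are adjacent, and their detection differed, with ADAM9 read on all 8 arrays and ADAM18 and ADAM2 on none. The 2 genes on chromosome 21 are ADAMTS1 and ADAMTS5, both of which fell in SH-EP2, and only ADAMTS1 was detected in SH-SY5Y.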

How the data were processed

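Total RNA of 8 cell samples was hybridised to Illumina bead arrays. The authors extracted bead signals in GenomeStudio 2011.1 and deposited them as intensities on a linear scale, not normalized, with a detection p-value per probe, which the authors' software also gave. Samples were grouped by cell line and shRNA as labelled. Following the method family the paper names, background was removed from the intensities by the RMA model, the 8 arrays were quantile normalized together, and log2 was taken. limma 3.58.1 in R 4.3.3 was fitted to 4 groups (lmFit, eBayes with an intensity trend), with no filter. Tests were two-sided and p-values were adjusted after Benjamini-Hochberg over the 47322 probes. The paper does not name its test. The scripts were tested on simulated data. Arrays give no depth, and their number, 2 per group, limits the precision.

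The genes and lists were chosen with earlier results of these data known. Named with the value of every array were members past an adjusted p of 0.05 in a TRPM7 shRNA comparison, the inhibitors, and MMP2, MMP9, MMP14, ADAM10, ADAM17 and ADAMTS5; between control lines, the 5 largest differences each way; per list, up to 4 genes past the threshold. Other members are given with the results they limit. Where a group lay below detection on both arrays, the fold is a bound: the brighter mean against the mean, per array, of the higher of the probe's own level and the lowest detected level.

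Symbols of all 68 genes are current in the RefSeq annotation of GRCh38.p14, which also gave gene order and promoters. The 5 symbols with letters after the number (ADAM21P, ADAM3A, ADAM5P, MMP23A and MMP23B) were left out. Alternatives were neqc, normexp with an offset of 50 or no background correction, scaling to the median, a filter to probes detected on 2 or more arrays, no intensity trend, the replicate number as a block, the mean over a gene's probes, each line alone and each array left out. A few genes of the marker and partner lists are not reported here.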

Additional observations from a re-analysis of the deposited data

Results flagged for a closer look

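The effect of TRPM7 shRNA differed between the 2 cell lines for 5 members by the interaction term of the limma fit, given here as the effect in SH-EP2 minus that in SH-SY5Y on the log2 scale. The difference was -4.03 for ADAMTS5 (95% interval -5.43 to -2.63), -1.52 for ADAMTS1 (-2.03 to -0.9995), -1.33 for ADAM23 (-1.74 to -0.92) and -0.92 for MMP11 (-1.34 to -0.51). For ADAMTS9 it was 1.39 (0.77 to 2.02). ADAMTS5 was undetected in SH-SY5Y and ADAMTS9 in SH-EP2, so that in these 2 genes the line without a detected level could not fall further. ADAMTS1, ADAM23 and MMP11 were detected on all 8 arrays. MMP11 fell in SH-EP2 and did not pass in SH-SY5Y (0.18), and ADAM23 rose by 1.53 in SH-SY5Y and did not pass in SH-EP2 (0.20).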

How the results depend on the processing

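No member's TRPM7 shRNA difference that passed, within a line or between the lines, changed sign under any alternative. Between control lines only the 5 largest differences each way were followed by gene, and none of them changed sign. Among list genes, BMP1 in SH-EP2 turned from -0.49 to 0.0199 with the mean over its probes, and the difference between lines in SNAI2 from 1.38 to -0.12 without background correction. ADAMTS1 and ADAMTS5 in SH-EP2 and ADAM23 and ADAMTS9 in SH-SY5Y passed in all 18 settings, RECK was lost in 8, ADAM19 in SH-EP2 in 7, ADAM22 in 6, MMP9 and MMP11 in 3, ADAM19 in SH-SY5Y in 2 and TIMP1 in 1. In SH-EP2 the count of 8 members rose to 10 with the line fitted alone and fell to 3 without the intensity trend and to 5 with the mean over a gene's probes. The count of 5 members that differed between lines fell to 1 without the intensity trend and rose to 8 with normexp or no background correction, where MMP9, ADAMTS19 and RECK were added. Without the trend 100 probes passed in SH-EP2, against 1429. With 1 array left out, counts ranged from 3 to 8 in SH-EP2, 3 to 6 in SH-SY5Y, 4 to 5 for the difference between lines and 19 to 25 between control lines; a group left with 1 array was then assumed to vary like the others. Median scaling moved the median of all probes to 0.092 in SH-SY5Y. Levels near background carry little information, and 32 of the 68 members were detected on both arrays of at least 1 group.

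The replicate numbers did not pair the samples: the replicate difference of control cells correlated with that of TRPM7 shRNA cells at r = -0.111 (SH-SY5Y) and r = -0.00447 (SH-EP2) over 14577 probes detected on all arrays. With the replicate number as a block 7 members passed in SH-EP2, with RECK lost, 3 in SH-SY5Y, 5 between lines and 25 between control lines. With the numbers crossed in SH-SY5Y, an alternative chosen after seeing the data, the counts were 8, 4, 6 and 25.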
